A study of Mus musculus with 37 samples.

Results

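Hepatic transcript levels of 10 genes of iron handling were examined in mice given HFPO-DA, a short-chain perfluoroalkyl ether acid that activates the nuclear receptor PPARα. The genes were chosen by name: Hamp and Hamp2 (hepcidin), Bmp6, Hfe and Tfr2 (its regulators), Trf and Tfrc (transferrin and its receptor), Slc40a1 (ferroportin), and Fth1 and Ftl1 (ferritin). They are 10 of the 21450 gene symbols on the TempO-Seq whole-transcriptome panel and are read by 14 of its 30146 probes. Wild-type CD1 mice, Crl:CD1(ICR) in the study's methods, of the parental generation were gavaged daily with deionized water alone or with HFPO-DA in it, at a low (0.1), a middle (0.5) or a high (5) dose in mg/kg. Males were about 6 weeks old at the first dose and received 84 to 85 doses, from 70 days before mating through a mating period of 14 days. Females were about 11 weeks old and received 53 to 65 doses, from 14 days before mating to lactation day 20 or 21. That schedule covers pregnancy and nursing, and it is given for the group rather than for each female. RNA came from formalin-fixed, paraffin-embedded liver sections. The deposited table holds 37 mice, with 5, 5, 5 and 4 males from the control to the high dose and, likewise, 5, 5, 4 and 4 females.

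Hepcidin is a peptide hormone made by hepatocytes that makes cells internalize and degrade ferroportin, the only known cellular iron exporter, and so limits how much iron enters plasma. Its transcription is raised through BMP receptors and SMAD factors when iron is plentiful, with BMP6 as the main ligand, HFE and transferrin receptor 2 as hepatocyte sensors and TMPRSS6 as a protease that damps the signal. Inflammation raises it as well, through IL-6 and STAT3. Transferrin, which hepatocytes secrete, carries iron in plasma to transferrin receptor 1 (Tfrc), while ferritin, a shell of heavy (Fth1) and light (Ftl1) chains, stores iron inside cells. Ferritin, ferroportin and Tfrc are also controlled after transcription by iron regulatory proteins, a layer that counts of mRNA do not read in full.

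The mouse carries 2 neighbouring hepcidin genes, and their sequences are shown because the results separate them. Hamp (chr7:30942368-30944032) and Hamp2 (chr7:30922372-30924681) lie on the minus strand of GRCm38, 17686 bases apart, and their longest annotated transcripts were 94.6% identical over 410 aligned bases. The 250 bases before each start, from RefSeq on GRCm38.p6, are chr7:30944030-30944279 for Hamp and chr7:30924182-30924431 for Hamp2. Capitals mark the BMP response element core GGCGCC and the STAT letters TTCNNNGAA.
Hamp: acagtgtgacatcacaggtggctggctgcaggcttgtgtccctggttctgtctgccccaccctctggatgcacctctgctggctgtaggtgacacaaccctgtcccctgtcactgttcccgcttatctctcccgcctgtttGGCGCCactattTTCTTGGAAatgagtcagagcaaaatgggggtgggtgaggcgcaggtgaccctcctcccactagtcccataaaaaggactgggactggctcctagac
Hamp2: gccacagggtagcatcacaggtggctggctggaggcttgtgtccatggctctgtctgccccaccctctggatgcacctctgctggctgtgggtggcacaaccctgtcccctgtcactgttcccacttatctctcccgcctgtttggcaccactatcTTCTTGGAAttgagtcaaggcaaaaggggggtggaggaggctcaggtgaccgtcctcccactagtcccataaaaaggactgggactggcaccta

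The paired promoters were 91.9% identical over 247 aligned bases. Hamp held GGCGCC at 109 bases before its start, and the STAT letters began 97 bases before the Hamp start and 94 bases before the Hamp2 start. Counted from the first base of GGCGCC in Hamp, Hamp2 differed within these letters by G4A, so the core was not matched there. On either strand of the 250 bases before the start, GGCGCC occurred in 9.59% and the STAT letters in 7.02% of all 32851 promoters in the RefSeq table. Of the other members, RefSeq promoters matched Bmp6, Fth1, Ftl1, Hfe, Tfr2 and Tfrc. None matched Trf or Slc40a1, so these were not searched. GGCGCC was also found for Tfrc, at 89 bases before the start, and the antioxidant response letters TGACNNNGC (10.2% of promoters) for Hfe and Bmp6. A direct repeat of AGGTCA spaced by 1 base, the form PPARα binds, was in 0.0335% of promoters and in none of those matched to members. The exact repeat was in only 11 of the 32851 promoters, so finding none among the few member promoters says little. The loop letters of an iron-responsive element, CAGTGN preceded by a C with 5 bases between, were searched on the coding strand in the first 50 transcribed bases, where 1.55% of promoters held them. A match was found for 1 of the Tfr2 starts and for none of the starts of the other matched members, Fth1 and Ftl1 among them. Ferritin is controlled by iron regulatory proteins, as stated above, so no match in this short window does not show that an element is absent. These matches are descriptions of letters, and a window without them says nothing about binding elsewhere.

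Total counts per mouse ran from 2101495 to 10548222 in males (median 7780828) and from 7952605 to 13878254 in females (median 10479002.5). The least deep libraries were male 0.5 mg/kg mouse 2 (2608954 counts) and male 5 mg/kg mouse 3 (2101495 counts). Levels are given as CPM, counts scaled to a common library size, after trimmed-mean (TMM) scaling. They are compared between mice for the same probe and not between probes, because each probe captures its target with its own efficiency. Male control mouse 2 stood apart in acute-phase genes. Its summed level of 19 such genes was 148557 CPM, whereas the median over the 5 male controls was 19290 CPM, and its Saa1 was 56720 CPM against 98.2 to 262.5 CPM in the other control males. Male 0.1 mg/kg mouse 1 had the next highest sum, 50632 CPM.

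The 13 member probes with enough counts were tested in edgeR with a false discovery rate of 10% over all 18570 probes, each dose against controls of the same sex. Hamp2 probe 63469 was left out by the count filter, with 38 counts in 4 of the 37 mice. No member probe passed at 0.1 mg/kg in either sex, where the share of all probes called was 0% in males and 0% in females. In each sex 2 member probes had an unadjusted p under 0.05, and DESeq2 called 0. At 0.5 mg/kg in males 2 member probes fell, both of Trf, where 0.242% of all probes fell. At 0.5 mg/kg in females edgeR and DESeq2 called 0 member probes, with 3 at an unadjusted p under 0.05, and 0.113% of all probes passed. At 5 mg/kg in males 3 member probes rose (both of Ftl1 and Fth1) and 2 fell (both of Trf), where 4.21% of all probes rose and 8.49% fell. At 5 mg/kg in females 2 member probes rose (both of Ftl1) and 3 fell (both of Trf and 1 of Slc40a1), where 2.26% of all probes rose and 2.26% fell. At that dose the median change over the 13 probes on the log2 scale was -0.07 (males) and -0.37 (females), beside -0.12 and -0.01 over all probes. In each sex at 5 mg/kg 2 member probes lay wholly above the controls and 2 wholly below, where 7.58% of all probes in males and 8.71% in females did not overlap with controls in either direction.

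**Figure D1:**
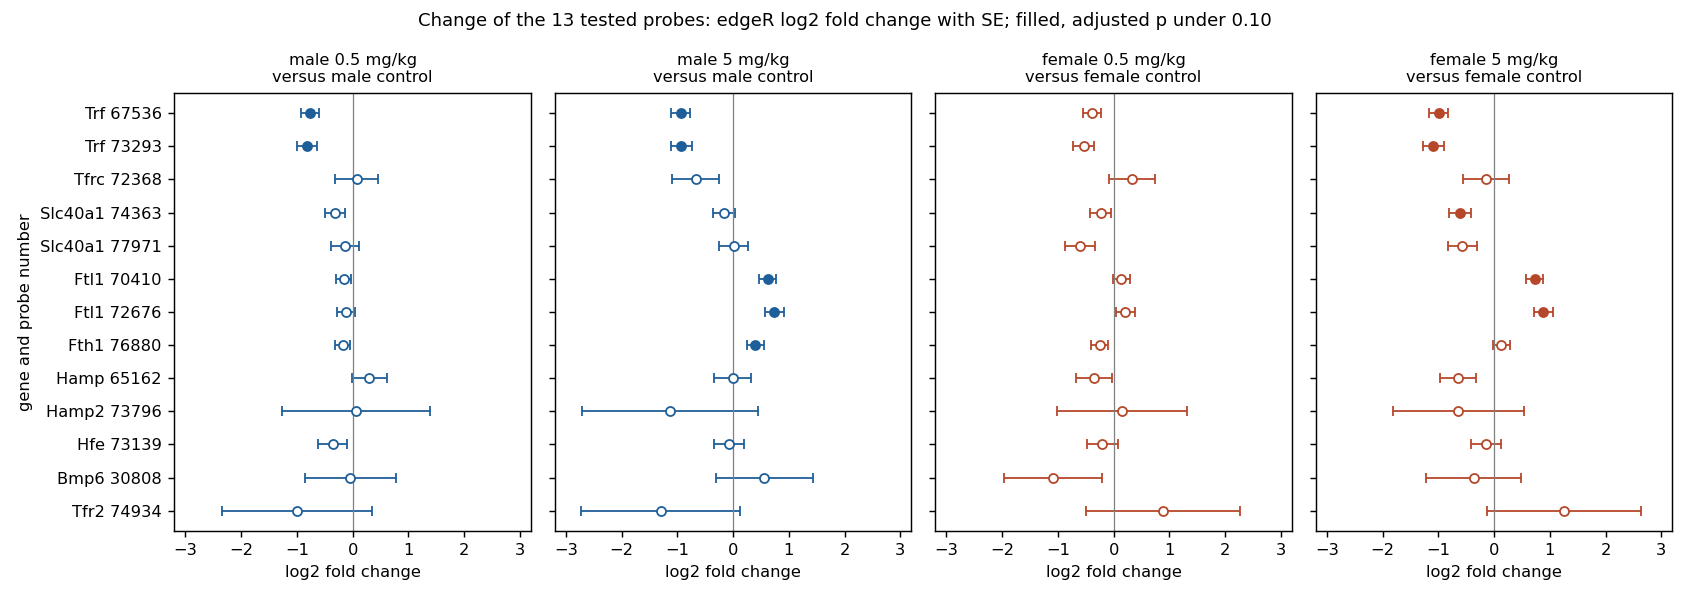
Log2 fold change against controls of the same sex (horizontal axis, with SE) for the 13 tested probes of the iron genes (vertical axis) at 0.5 and 5 mg/kg in males and females. Filled points passed an adjusted p of 0.10: Trf fell in males at 0.5 mg/kg and in both sexes at 5 mg/kg, where both Ftl1 probes rose, while Hamp, Hamp2, Hfe, Bmp6, Tfr2 and Tfrc show open points throughout.

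Transferrin fell with dose in both sexes. Trf (chr9:103204001-103230444, minus strand) encodes the plasma carrier of ferric iron. At probe 67536 control males measured 2845, 4478, 2448, 2816 and 2781 CPM, and males at 5 mg/kg measured 1457, 1599, 1529 and 1813 CPM. Control females measured 3115, 5096, 3908, 5123 and 3237 CPM, and females at 5 mg/kg 1838, 2351, 1964 and 2105 CPM. In both sexes every mouse at the highest dose lay below every control. The log2 fold change was -0.94 ± 0.17 (SE, adjusted p = 0.0001, n = 4 and 5) in males and -0.99 ± 0.17 (adjusted p = 7.89e-05, n = 4 and 5) in females, a level 1.92-fold and 1.98-fold lower. The change did not pass a test of difference between the sexes (male minus female 0.05 ± 0.23, adjusted p = 1.0).

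At 0.5 mg/kg the same Trf probe measured 1772, 1671, 2151, 1884 and 1614 CPM in males, again all below the lowest control, and 2821, 3857, 2580 and 3271 CPM in females, overlapping the controls. The log2 fold change was -0.76 ± 0.16 (adjusted p = 0.00864) in males and -0.39 ± 0.16 (adjusted p = 1.0) in females, and the difference between them, -0.37 ± 0.22, did not pass (adjusted p = 1.0). At 0.1 mg/kg males measured 2196 to 2599 CPM and females 2949 to 4145 CPM, overlapping the controls in both sexes. Group means thus fell at each step, from 3074 to 2390, 1818 and 1600 CPM in males and from 4096 to 3619, 3132 and 2064 CPM in females.

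The other Trf probe, 73293, gave the same picture. Control males measured 2697 to 5393 CPM, males at 0.5 mg/kg 1759 to 2261 CPM and males at 5 mg/kg 1544 to 2172 CPM. Control females measured 3576 to 6695 CPM and females at 5 mg/kg 1860 to 2678 CPM. Its log2 fold change was -0.82 ± 0.18 (adjusted p = 0.0192) in males at 0.5 mg/kg, -0.93 ± 0.19 (adjusted p = 0.000915) in males at 5 mg/kg and -1.09 ± 0.19 (adjusted p = 0.000181) in females at 5 mg/kg. Deviations of the 2 probes from their group means moved together over the 37 mice (Pearson r = 0.93, a description across mice that share a library for both probes).

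The highest male control at both Trf probes was mouse 2, the animal with the high acute-phase level. Without that mouse the male log2 fold changes at 0.5 mg/kg were -0.58 (adjusted p = 0.09) for probe 67536 and -0.60 (adjusted p = 0.162) for probe 73293, so the second of these calls was lost. At 5 mg/kg they were -0.80 (adjusted p = 0.000597) and -0.75 (adjusted p = 0.00551). Transcripts of other hepatocyte plasma proteins moved with Trf. Of 12 hepatocyte markers, 8 fell in males at the highest dose, 6 fell in females and 0 rose, and their summed level went from 40359 to 54881 CPM in control males to 22110 to 27771 CPM, and from 32959 to 45797 CPM in control females to 32489 to 36670 CPM. At that dose 4.21% of all probes rose and 8.49% fell in males, and 2.26% rose and 2.26% fell in females. Albumin, the defining marker, did not pass in either sex (Alb log2 fold change -0.16 ± 0.16 in males and -0.25 ± 0.16 in females). The part of these markers in the Trf result was not tested. In sections of whole liver, fewer cells of a type and less RNA per cell cannot be told apart.

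**Figure D2:**
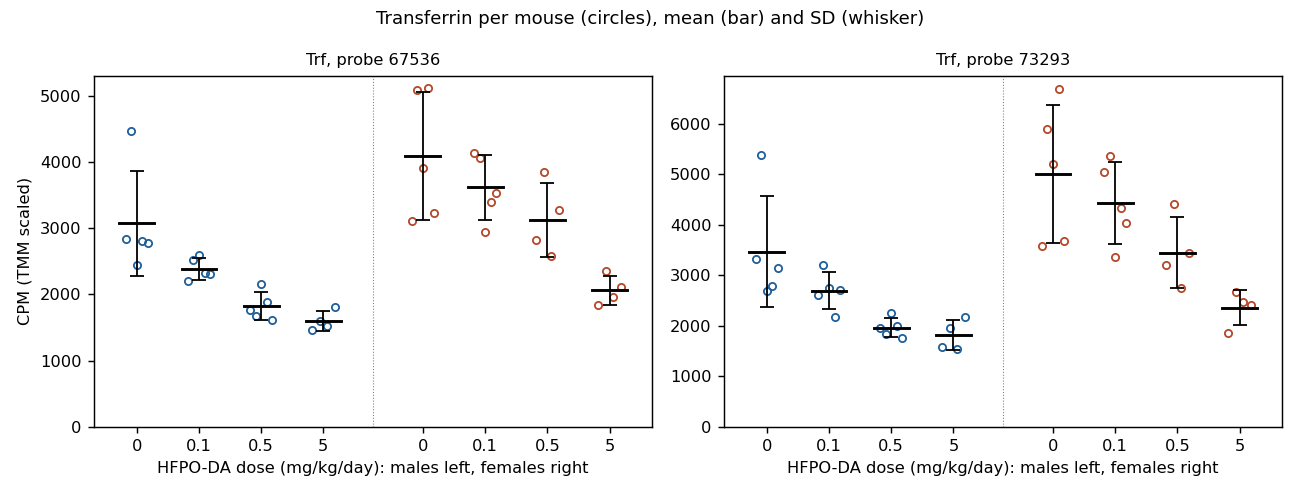
Transferrin level in CPM (vertical axis, linear from 0) for each mouse by dose in mg/kg/day (horizontal axis, males left and females right) at the 2 Trf probes; circles are mice, bars group means and whiskers SD. Every mouse at 5 mg/kg lies below every control of its sex, and a lone male control at 4478 and 5393 CPM is mouse 2.

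Transferrin receptor 1 passed in neither sex, and its change was not tested against that of Trf. Tfrc, which brings iron-loaded transferrin into cells, measured 17.1, 29.7, 17.9, 17.9 and 20.2 CPM in control males and 4.72, 9.49, 21.4 and 16.7 CPM at 5 mg/kg. Control females measured 4.40, 5.73, 20.3, 22.6 and 11.9 CPM and females at 5 mg/kg 6.07, 8.21, 20.6 and 12.3 CPM. The groups overlapped in both sexes, and the log2 fold changes of -0.67 ± 0.42 (adjusted p = 0.357) and -0.14 ± 0.41 (adjusted p = 1.0) did not pass. The highest female mean, 24.3 ± 4.52 CPM (SD, n = 5), was at 0.1 mg/kg, where the log2 fold change of 0.90 had an unadjusted p under 0.05 and an adjusted p of 1.0.

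Ferritin light chain rose at the highest dose in both sexes. Ftl1 (chr7:45457944-45459884, minus strand) measured 677.1, 688.7, 851.4, 835.4 and 624.2 CPM at probe 70410 in control males and 1237, 945.9, 1192 and 1153 CPM at 5 mg/kg. Control females measured 707.8, 707.6, 739.8, 659.4 and 537.9 CPM, and females at 5 mg/kg 1231, 1108, 1140 and 960.7 CPM. No mouse at 5 mg/kg overlapped the controls of its sex. The log2 fold change was 0.62 ± 0.15 (1.54-fold, adjusted p = 0.00391) in males and 0.73 ± 0.15 (1.66-fold, adjusted p = 0.000986) in females.

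Probe 72676 of Ftl1 moved likewise, from 501.4 to 650.9 CPM in control males to 813.3 to 1140 CPM, and from 321.3 to 485.1 CPM in control females to 590.4 to 870.8 CPM. Its log2 fold change was 0.74 ± 0.17 (adjusted p = 0.00297) in males and 0.88 ± 0.17 (adjusted p = 0.000554) in females. The male minus female difference, -0.11 ± 0.21 at probe 70410 and -0.14 ± 0.24 at probe 72676, did not pass (adjusted p = 0.97 and 0.96). At 0.1 and 0.5 mg/kg neither probe passed in either sex. Group means at probe 70410 were 651.1 and 656.5 CPM in males at 0.1 and 0.5 mg/kg, beside 735.4 CPM in controls, and 551.2 and 740.4 CPM in females, beside 670.5 CPM in controls.

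Ftl1 has a near-identical copy on chromosome 13, Ftl1-ps1 (chr13:74399694-74407346), whose longest annotated transcript matched that of Ftl1 at 99.6% of 910 aligned bases. The panel carries 2 probes named for it, and both rose at 5 mg/kg, by 1.13 ± 0.22 and 0.81 ± 0.19 on the log2 scale in males (adjusted p = 0.00031 and 0.00463) and by 1.07 ± 0.21 and 1.16 ± 0.19 in females (adjusted p = 0.000966 and 6e-05). Probe sequences were not used here, so whether the probes of Ftl1 and Ftl1-ps1 count the same RNA was not tested, and the values of each are uncertain to that extent.

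Ferritin heavy chain, the ferroxidase subunit, passed in males and not in females. Fth1 (chr19:9980598-9985098, plus strand) measured 1030, 748.8, 760.2, 802.3 and 731.8 CPM in control males and 1106, 1046, 1225 and 910.6 CPM at 5 mg/kg. The highest control overlapped the treated mice. The log2 fold change of 0.40 ± 0.15 passed narrowly (adjusted p = 0.0879) and was lost under 11 of 18 alternatives, where the adjusted p ran up to 0.279. Females measured 665.0, 885.4, 908.2, 862.0 and 698.7 CPM as controls and 879.9, 876.8, 861.4 and 908.2 CPM at 5 mg/kg, and the log2 fold change of 0.13 ± 0.15 did not pass (adjusted p = 0.959). The male minus female difference was 0.26 ± 0.21 (adjusted p = 0.757).

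The ratio of the summed Ftl1 probes to Fth1 in each mouse was computed after these values were seen. In females it averaged 1.37 ± 0.242 (SD, n = 5) in controls, 1.31 ± 0.135 (n = 5) at 0.1, 1.82 ± 0.278 (n = 4) at 0.5 and 2.14 ± 0.299 (n = 4) at 5 mg/kg. In males it averaged 1.63 ± 0.29 (n = 5), 1.69 ± 0.434 (n = 5), 1.64 ± 0.123 (n = 5) and 1.96 ± 0.248 (n = 4). Over 6 comparisons with controls by a two-sided exact permutation test, females at 5 mg/kg gave p = 0.0317 and females at 0.5 mg/kg p = 0.0476 (exact, each 0.143 after Benjamini-Hochberg adjustment), and males at 5 mg/kg gave an exact p of 0.0952 (adjusted 0.19). None passed an adjusted p of 0.10.

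**Figure D3:**
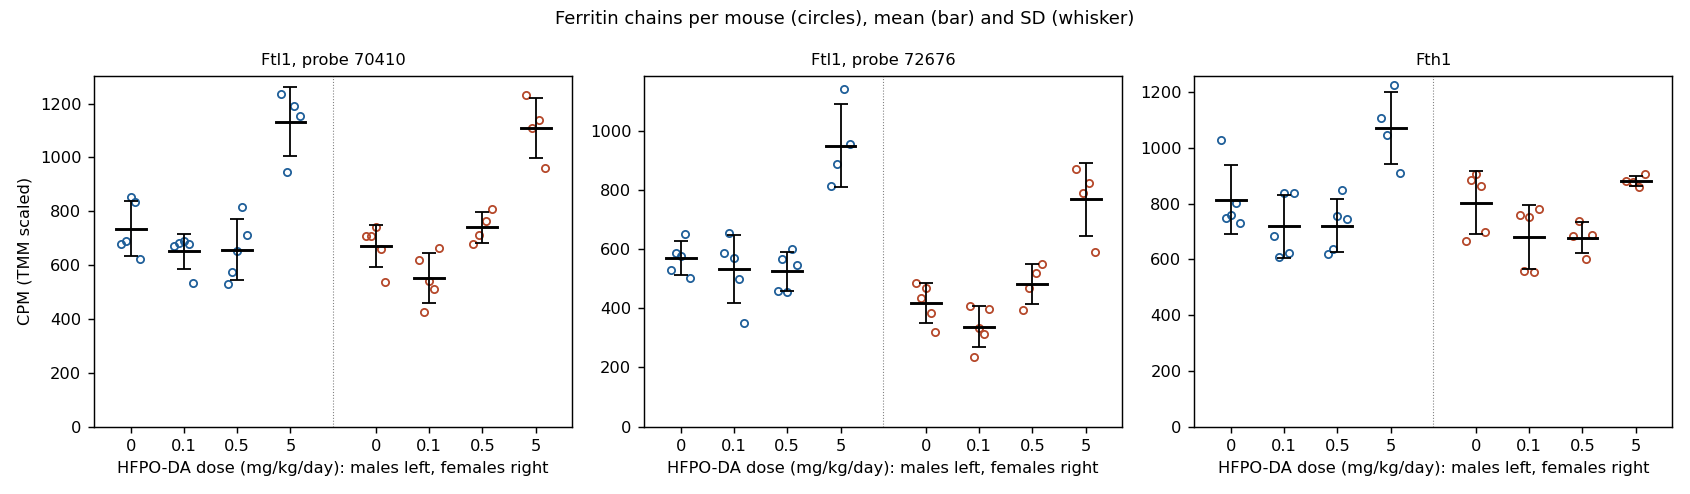
Ferritin transcript level in CPM (vertical axes, linear from 0) for each mouse by dose in mg/kg/day (males left, females right) at 2 Ftl1 probes and the Fth1 probe; circles are mice, bars means and whiskers SD. Both Ftl1 probes stand above the controls in every mouse at 5 mg/kg, whereas Fth1 at 5 mg/kg overlaps the controls in both sexes.

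Hepcidin did not pass at any dose in either sex. Hamp measured 21.6, 31.9, 33.8, 50.5 and 35.7 CPM in control males and 46.5, 30.1, 21.8 and 38.6 CPM at 5 mg/kg, the same range. Control females measured 161.7, 73.0, 38.2, 60.0 and 143.1 CPM and females at 5 mg/kg 47.0, 52.6, 94.4 and 48.1 CPM. The female controls spread over a range that holds all 4 treated mice. The change on the log2 scale was -0.01 ± 0.33 (adjusted p = 0.994) in males and -0.65 ± 0.32 (unadjusted p = 0.0493, adjusted p = 0.402) in females, and the male minus female difference of 0.64 ± 0.46 did not pass (adjusted p = 0.702). Females at 0.1 mg/kg measured 77.0 to 135.6 CPM and at 0.5 mg/kg 45.4 to 111.8 CPM, and males measured 24.1 to 45.1 CPM and 24.8 to 60.7 CPM.

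Hamp differed between the cohorts. All 4 female means, 60.5 to 99.4 CPM, lay above all 4 male means, 33.3 to 43.1 CPM. Among controls Hamp was lower in males by 1.46 ± 0.31 on the log2 scale (2.74-fold lower, adjusted p = 0.00289, 5 mice each), although the highest male at 50.5 CPM exceeded the lowest female at 38.2 CPM. In that comparison 0 member probes were higher in males, where 1.24% of all probes were, and 3 were lower (Hamp, Hamp2 probe 73796 and Slc40a1 probe 74363), where 1.36% of all probes were. Sex, lactation, age, length of dosing and depth go together here and cannot be told apart. Erythroid transcripts also differed, with a summed level of 85.0 to 188.9 CPM in control males and 16.2 to 53.0 CPM in control females over 13 genes. Among them Alas2, the erythroid enzyme that begins haem synthesis, averaged 74.7 ± 22.3 CPM in control males and 3.40 ± 1.92 in control females (adjusted p = 3.9e-08), and Epb42 had no count in any mouse. The part of these markers in the Hamp difference was not tested.

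Male control mouse 2, with the highest Saa1 of all, measured 31.9 CPM for Hamp, inside the range of the other control males. Male 0.1 mg/kg mouse 1, with Saa1 at 15490 CPM, measured 45.1 CPM, the highest of its group, which otherwise ran from 24.1 to 34.3 CPM. On log2 CPM, deviations of Hamp from its group means had a Pearson r of 0.19 with those of Saa1 over the 37 mice. The genes whose deviations were most like those of Hamp, among 10363 genes, were Uroc1 (r = 0.63), Vtn (0.61), Itm2b (0.61), C8g (0.58) and Gstp2 (0.57). Tmprss6 stood at r = 0.39, Hamp2 at 0.28, Tfrc at -0.37 and Fth1 at -0.50, near the foot of the ranking at 10315. These are descriptions across mice, each of which shares its library and depth over all genes.

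Hamp2 split the females into mice with and without counts. At probe 73796 control females measured 58.1, 0, 0, 22.2 and 44.8 CPM, females at 0.1 mg/kg 20.3, 12.7, 41.0, 0 and 21.6 CPM, females at 0.5 mg/kg 0, 49.4, 21.9 and 40.1 CPM, and females at 5 mg/kg 32.7, 0, 12.6 and 19.1 CPM. Thus 5 of 18 females had no count, with 2, 1, 1 and 1 of them in order of rising dose, while the other 13 had 143 to 597 counts and lay at 12.6 to 58.1 CPM, with nothing between. A count of 0 at these depths allows up to 0.284 to 0.309 CPM of the library total, from counting error alone. Probe sequences were not used here and CD1 is an outbred stock, so a probe that did not match a mouse's own Hamp2 sequence and a lack of transcript cannot be told apart at these zeros. Hamp was detected in all of them: the 5 females without Hamp2 measured 38.2 to 135.6 CPM for Hamp (median 52.6) and the other 13 measured 47.0 to 161.7 CPM (median 79.5).

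All 19 males lay at or below 2.90 CPM for the same Hamp2 probe, with at most 19 counts. Control males measured 0.721, 1.30, 0, 1.33 and 2.56 CPM (0 to 18 counts). These overlapped the control females, of which 2 had no count and the others lay at 22.2 to 58.1 CPM, above every control male. The test between control males and control females passed (adjusted p = 0.0809) and was lost in 10 of 18 alternatives. No dose passed in either sex. Probe 63469 of Hamp2 had counts only in 4 females, 2 controls and 2 at 0.1 mg/kg, with at most 15 counts, each of them a mouse in which probe 73796 was counted.

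**Figure D4:**
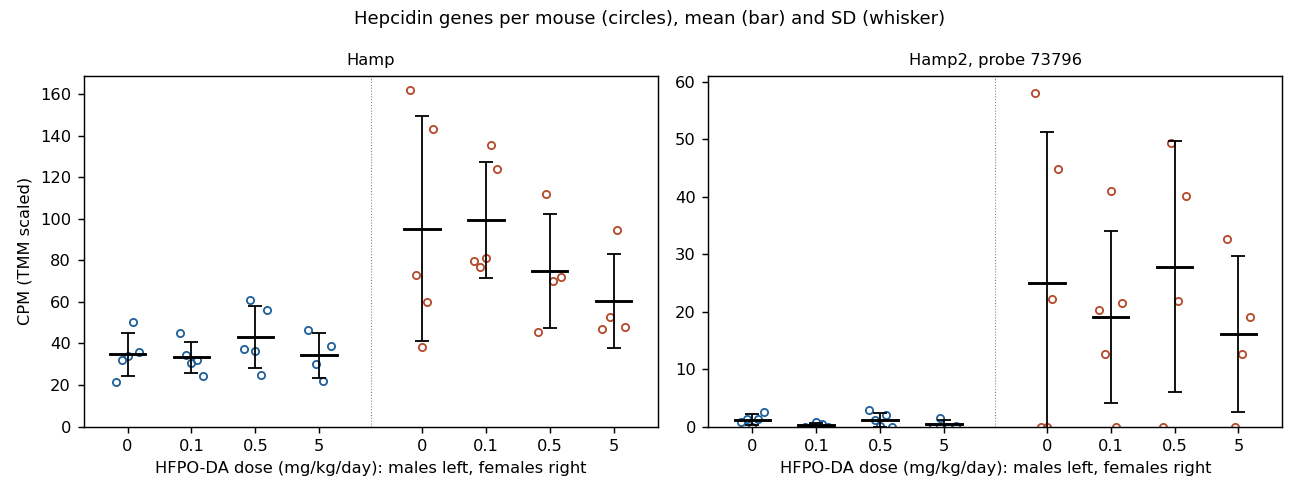
Hepcidin transcript level in CPM (vertical axes, linear from 0) for each mouse by dose in mg/kg/day (males left, females right) for Hamp and for Hamp2 probe 73796; circles are mice, bars means and whiskers SD. Female Hamp means of 60.5 to 99.4 CPM exceed the male means of 33.3 to 43.1 CPM, and Hamp2 lies at 0 in 5 females, at 12.6 to 58.1 CPM in the other 13 and at 2.90 CPM or less in every male.

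Of the regulators of hepcidin among the members, none passed in any comparison. Hfe, an MHC class I-like protein that signals iron through transferrin receptors, measured 33.6 to 66.7 CPM in control males and 37.7 to 54.5 CPM at 5 mg/kg, and 21.8 to 41.0 and 18.7 to 36.1 CPM in females. On the log2 scale its change was -0.07 ± 0.27 in males and -0.14 ± 0.27 in females (adjusted p = 0.936 and 1.0). Bmp6, the ligand released by liver endothelial cells, lay between 0 and 10.1 CPM in the 37 mice, and its log2 fold change was 0.56 ± 0.87 in males and -0.37 ± 0.86 in females. Tfr2, the hepatocyte receptor, lay between 0 and 5.00 CPM, with standard errors of 1.43 and 1.38 on the log2 scale at 5 mg/kg. For Bmp6 and Tfr2 the standard errors were close to or above 1 on the log2 scale, so a doubling lay within about 1 standard error of no change and was not detectable here.

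Ferroportin fell in females at the highest dose at 1 of its probes. Slc40a1 (chr1:45908068-45926523, minus strand) measured 93.2, 164.3, 102.3, 155.6 and 122.0 CPM at probe 74363 in control females and 73.1, 76.9, 101.8 and 83.3 CPM at 5 mg/kg. A lone treated mouse, at 101.8 CPM, overlapped the controls. The log2 fold change was -0.61 ± 0.20 (adjusted p = 0.0862). It was lost in 9 of 18 alternatives, where the adjusted p ran up to 0.275.

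Probe 77971 of Slc40a1 measured 53.1 to 103.2 CPM in control females and 35.9 to 71.0 CPM at the highest dose, a change on the log2 scale of -0.57 ± 0.26 that did not pass alone (adjusted p = 0.354). With the 2 probes summed the gene passed at -0.59 (adjusted p = 0.0859). Deviations of the 2 probes were less alike than those of Trf or Ftl1 (r = 0.52 beside 0.93 and 0.77). In males the probes measured 68.1 to 97.3 and 35.9 to 94.2 CPM in controls and 54.8 to 93.1 and 47.6 to 77.1 CPM at 5 mg/kg, with log2 fold changes of -0.16 ± 0.20 (adjusted p = 0.7) and 0.01 ± 0.26 (adjusted p = 1.0). The male minus female difference of 0.44 ± 0.28 at probe 74363 did not pass (adjusted p = 0.622). Kupffer cells, the liver macrophages that recycle iron and carry much ferroportin, showed no marker past the test among 14 in either sex, with summed levels of 315.7 to 653.4 CPM in control females and 408.0 to 781.9 CPM at 5 mg/kg. Of all probes 4.21% rose and 8.49% fell in males at 5 mg/kg, and 2.26% rose and 2.26% fell in females. Among controls Slc40a1 probe 74363 was lower in males, 80.6 ± 13.7 CPM (SD, n = 5) beside 127.5 ± 31.5 CPM (n = 5), by 0.66 ± 0.18 on the log2 scale (adjusted p = 0.0479, lost in 6 of 18 alternatives).

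**Figure D5:**
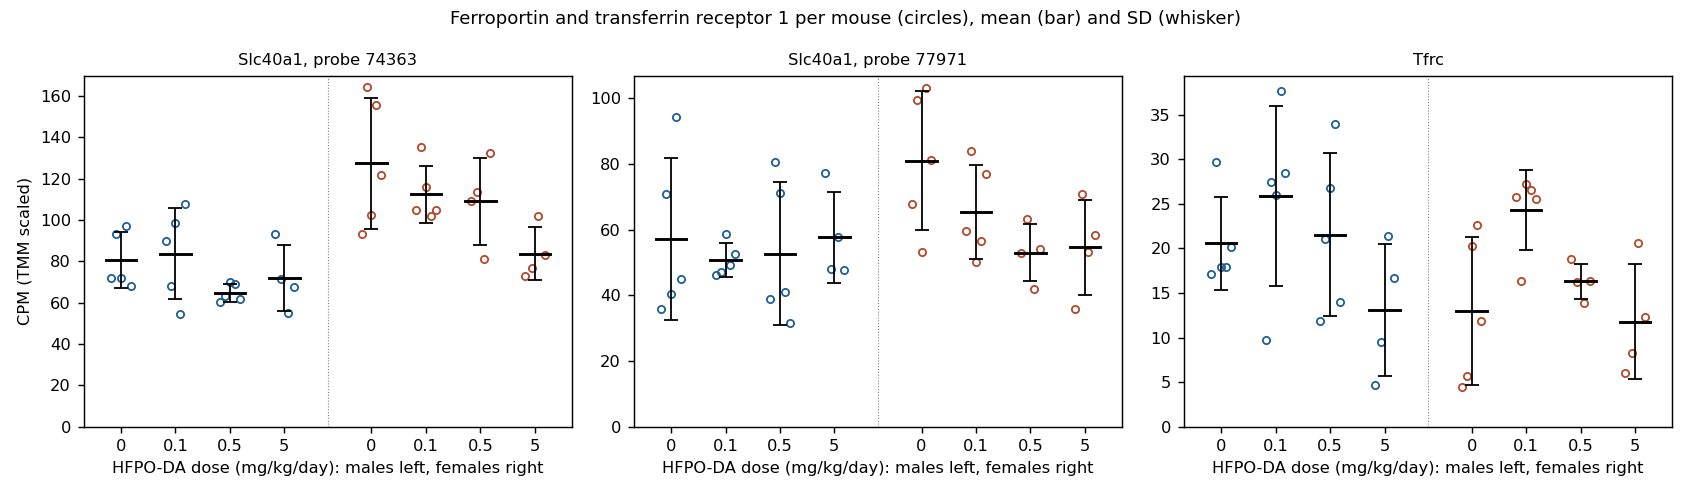
Level in CPM (vertical axes, linear from 0) of the 2 ferroportin probes and of Tfrc for each mouse by dose in mg/kg/day (males left, females right); circles are mice, bars means and whiskers SD. Slc40a1 probe 74363 steps down from a control mean of 127.5 CPM to 83.8 CPM at 5 mg/kg in females, whereas every male group overlaps its controls. Tfrc varies from 4.40 to 37.7 CPM over all mice, with group means highest at 0.1 and lowest at 5 mg/kg in both sexes. No Tfrc change passed an adjusted p of 0.10.

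The tests of whether the sexes differed in their response called no member probe. The share of all probes called was 0% at 0.1 mg/kg, 0.0108% at 0.5 mg/kg and 0.63% at 5 mg/kg. At each dose 0 of the 13 member probes had an unadjusted p under 0.05, and DESeq2 called 0. The standard errors of the male minus female differences at 5 mg/kg ran from 0.21 for Ftl1 probe 70410 and Fth1 to 1.99 for Tfr2, so the precision differs widely between members.

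Around the members, Tmprss6 was the gene of hepcidin control that passed in both sexes. Of 27 tested genes of hepcidin control, 1 rose and 3 fell at 5 mg/kg in males, and 0 rose and 1 fell in females, with a median log2 fold change of -0.22 and -0.03 beside -0.11 and -0.02 over all genes. Over all probes at that dose 4.21% rose and 8.49% fell in males, and 2.26% rose and 2.26% fell in females. Tmprss6, the protease that cleaves the BMP co-receptor hemojuvelin and so lowers hepcidin, fell in both sexes, from 445.8 ± 62.0 to 269.5 ± 32.8 CPM in males (log2 fold change -0.73 ± 0.15, adjusted p = 0.0007) and from 489.6 ± 76.8 to 290.2 ± 22.1 CPM in females (-0.75 ± 0.15, adjusted p = 0.000646). Hfe2, which encodes hemojuvelin, rose in males from 99.6 ± 47.8 to 213.1 ± 48.9 CPM (1.10 ± 0.24, adjusted p = 0.00198) and measured 155.7 ± 39.4 and 152.4 ± 32.7 CPM in females (adjusted p = 1.0). The male minus female difference for Hfe2, 1.13 ± 0.34, did not pass (adjusted p = 0.187). In males Furin, a protease that processes prohepcidin and hemojuvelin, fell by 0.65 ± 0.16 (adjusted p = 0.0076) and Stat3, the factor through which IL-6 acts, fell by 0.91 ± 0.23 (adjusted p = 0.00839).

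Of 20 tested genes of iron transport and sensing, 3 fell in males at 5 mg/kg, 1 fell in females and 0 rose, with medians of -0.30 and 0.13 beside -0.11 and -0.02 over all genes. These counts stand beside the 8.49% and 2.26% of all probes that fell. Slc39a14, the ZIP14 importer of iron not bound to transferrin, fell in both sexes, from 277.2 ± 70.1 to 93.5 ± 33.9 CPM in males (-1.56 ± 0.25, adjusted p = 1.94e-05) and from 250.8 ± 65.5 to 149.2 ± 50.6 CPM in females (-0.75 ± 0.24, adjusted p = 0.0846, lost at -0.66 and adjusted p = 0.123 with scaling by total counts). Cp, the plasma ferroxidase ceruloplasmin, fell in males from 3875 ± 2665 to 1939 ± 319.6 CPM (adjusted p = 0.00333), with a log2 fold change of -0.50 (adjusted p = 0.0385) without male control mouse 2. The call for Lcn2, the siderophore-binding lipocalin 2, rested on male control mouse 2, at 1119 CPM beside 1.33 to 6.96 CPM in the other controls, and without that mouse its log2 fold change was 1.75 (adjusted p = 0.266).

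Of 22 tested genes of haem synthesis and breakdown, 1 rose and 6 fell in males at 5 mg/kg, and 2 rose and 1 fell in females, with medians of 0.12 and 0.44 beside -0.11 and -0.02 over all genes. Beside these counts, 4.21% of all probes rose and 8.49% fell in males, and 2.26% rose and 2.26% fell in females. The male split of the list was 4 up and 3 down with scaling by total counts. Alas1, the rate-limiting enzyme of hepatic haem synthesis, rose in females from 28.1 ± 15.3 to 68.7 ± 24.7 CPM (1.29 ± 0.34, adjusted p = 0.0177) and in males went from 44.0 ± 21.7 to 22.3 ± 10.7 CPM (-0.98 ± 0.35, adjusted p = 0.0752). The difference between the sexes passed (male minus female -2.27 ± 0.49, adjusted p = 0.0165), while the male fall alone was lost without male control mouse 2 (-0.69, adjusted p = 0.226) and with total counts (-0.72, adjusted p = 0.196). Cpox, a later enzyme of the pathway, rose in females by 0.79 ± 0.21 (adjusted p = 0.021). Lrp1, the receptor that clears haem bound to hemopexin, fell in both sexes, by 0.85 ± 0.17 in males and 0.63 ± 0.17 in females (adjusted p = 0.00059 and 0.0211). In males Hmox2, the constitutive haem oxygenase, fell by 0.93 ± 0.20 (adjusted p = 0.00106), Blvra, biliverdin reductase A, fell by 1.57 ± 0.41 (adjusted p = 0.0111), and Abcg2, an exporter of haem and porphyrins, rose by 2.11 ± 0.50 (adjusted p = 0.00385). Hp, haptoglobin, had a male log2 fold change of -1.27 ± 0.43 (adjusted p = 0.0592) that was -0.15 (adjusted p = 0.856) without male control mouse 2.

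Of 16 tested genes of iron-sulfur cluster assembly, 1 rose and 1 fell in males at 5 mg/kg, and 2 rose and 0 fell in females, with medians of 0.26 and 0.19 beside -0.11 and -0.02 over all genes. The shares of all probes were 4.21% up and 8.49% down in males, and 2.26% up and 2.26% down in females. Bola3, which helps pass clusters to mitochondrial enzymes, rose in males by 1.11 ± 0.22 (adjusted p = 0.000379). Fdx1, the ferredoxin, fell in males by 0.45 ± 0.17 (adjusted p = 0.099), a call lost with either other scaling. Isca2 and Iscu, a carrier and the scaffold of assembly, rose in females by 0.64 ± 0.21 and 0.55 ± 0.18 (adjusted p = 0.0922 and 0.0945), and both calls were lost when male control mouse 2 was left out of the shared fit.

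A part of the acute-phase transcripts, which IL-6 induces alongside hepcidin, moved with Trf in males. Of 19 tested, 14 fell in males at 5 mg/kg and 4 in females, and 0 rose. Among all probes, with every mouse in the fit, 4.21% rose and 8.49% fell in males, and 2.26% rose and 2.26% fell in females. Without male control mouse 2, 8 of the 19 genes fell in males, and 5 fell and 1 rose in females. Their summed level was 8703 to 13428 CPM in males at 5 mg/kg, below every control (16660 CPM and above), and in females at 5 mg/kg 3 mice lay at 13070 to 13710 CPM and mouse 2 at 30129 CPM, beside 18751 to 25425 CPM in controls. Crp, whose calls did not change without that control, fell from 3038 ± 437.4 to 1403 ± 370.9 CPM in males and from 3005 ± 284.5 to 1757 ± 297.0 CPM in females (adjusted p = 6.72e-06 and 0.0022). Without that control the male log2 fold change at 5 mg/kg was 0.20 for Saa1, 1.57 for Saa2, 1.37 for Orm2 and 1.75 for Lcn2. None of these passed (adjusted p = 0.944, 0.362, 0.225 and 0.266). Orm3 (-2.74) and Hp (-0.15) stayed below 0 and did not pass either (adjusted p = 0.38 and 0.856). Among markers of other liver cells, 0 of 12 for stellate cells passed in either sex, 2 of 14 for sinusoidal endothelium (Oit3 and Kdr) fell in males and 0 in females, 0 of 3 for cholangiocytes passed, 1 of 9 for lymphocytes (Cd3d) fell in males and 0 in females, and 1 of 6 for erythroid cells (Gata1) rose in males and 0 in females. The Gata1 call was lost without male control mouse 2 (adjusted p = 0.107) and without the least deep males (0.172), and the Kdr call with total counts (0.139) and without the least deep males (0.128). The part of any of these lists in the member results was not tested.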

How the data were processed

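Liver sections of 37 mice were measured with TempO-Seq, in which pairs of detector oligos are ligated on their target RNA and sequenced. The counts, deposited by the authors as raw reads per probe, were not normalized. The submitters' processing notes name bcl2fastq 2.17.1.14 and Bowtie, and the genome build is not given in the sources used here. Mice were grouped by the sex and dose in their labels, each a separate animal, and the study had removed libraries of low depth. Replicate numbers only name mice.

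Counts were tested with edgeR 4.0.16 (R 4.3.3): filterByExpr over the 8 groups, TMM scaling, quasi-likelihood fits of group means on all 37 mice, and Benjamini-Hochberg adjustment over 18570 probes at a threshold of 0.10. Doses were compared with controls of the same sex, the sexes by the difference of those changes, and control males with control females. The study used DESeq2, here an alternative (DESeq2 1.42.0) beside other scalings, filters, a threshold of 0.05, summed probes, sexes fitted apart and libraries left out. The scripts were tested on simulated data. CPM was taken after TMM scaling, and SD is over mice. Depth sets precision, and floors of 3 counts cover counting error only. Standard errors came from the edgeR fits, whose estimate of spread includes that between mice. Gene positions came from GENCODE M21 and promoters from RefSeq (GRCm38.p6).

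The members and lists were chosen with earlier results of these data known. Named were all member probes, up to 5 called genes per pathway list and sex at 5 mg/kg by smallest adjusted p, up to 3 abundant genes of lists that moved with a member, and the 5 genes most like Hamp. Other genes named, among them Saa1, Ftl1-ps1, Alas2, Oit3, Kdr, Cd3d and Gata1, were chosen after their values were seen. List genes were read at their most-counted probe. A check of the treatment by a target gene is not reported here.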

Additional observations from a re-analysis of the deposited data

Results flagged for a closer look

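Within groups of 4 or 5 mice, 104 probe and group combinations were examined for a mouse far from the others by Dixon's 95% criterion, and 12 met it. Chance alone meets it in about 1 in 20 groups. Male control mouse 2 was high at Trf probe 67536 (4478 CPM, others 2448 to 2845), Trf probe 73293 (5393 CPM, others 2697 to 3324) and Tfrc (29.7 CPM, others 17.1 to 20.2), and this mouse also had the highest acute-phase level. Male control mouse 1 was high for Fth1 (1030 CPM, others 731.8 to 802.3), and male 0.1 mg/kg mouse 5 was low at Ftl1 probe 70410 (533.8 CPM, others 671.9 to 689.6). For Hamp, female 5 mg/kg mouse 3 measured 94.4 CPM, others 47.0 to 52.6. For Hamp2 probe 73796, male 5 mg/kg mouse 2 measured 1.43 CPM, others 0 to 0.155. Tfrc was low in female 0.1 mg/kg mouse 2 (16.3 CPM, others 25.6 to 27.2). Hfe was high in male 5 mg/kg mouse 1 (54.5 CPM, others 37.7 to 40.5) and low in female 0.1 mg/kg mouse 1 (31.2 CPM, others 36.6 to 38.8). Tfr2 was high in male 0.5 mg/kg mouse 2 (4.53 CPM, others up to 0.986) and in female control mouse 1 (2.20 CPM, others up to 0.41).

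The change at 5 mg/kg differed between the sexes for Alas1, by -2.27 on the log2 scale (male minus female, edgeR interaction, adjusted p = 0.0165), and for Hp, by -2.32 (adjusted p = 0.0787). The Hp difference did not pass under any of 4 alternatives: DESeq2 size factors (-2.22, adjusted p = 0.101), total counts (-2.11, adjusted p = 0.121), without the least deep males (-2.20, adjusted p = 0.148) and without male control mouse 2 (-1.17, adjusted p = 0.311).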

How the results depend on the processing

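Of 510 recomputed values for 28 results on single probes, 462 kept their direction and side of the threshold, 37 lost a call, 11 gained one and 0 changed sign. These 28 were the member results with an unadjusted p under 0.05 in the main edgeR fit, called or not. That choice made a change of sign unlikely, and a result that stayed uncalled was counted as kept. With the probes of a gene summed, the member calls were 1 in place of 2 in males at 0.5 mg/kg, 3 in place of 5 in males at 5 mg/kg and 3 in place of 5 in females at 5 mg/kg, since paired probes then count once. Leaving out 1 mouse at a time gave 1 to 2, 4 to 5 and 4 to 5 calls, with 1 at 0.5 mg/kg in males without male control mouse 2. Between control males and control females the 3 calls became 5 with total counts alone and 5 in DESeq2, and 1 to 4 with 1 mouse left out, with 1 without male control mouse 1, 3 or 5 or female control mouse 4. The cause was not tested. Scaling by total counts put the median of all probes in males at 5 mg/kg at 0.079, beside -0.118 with TMM, and that between controls at -0.184, beside -0.059. The alternatives for the gene lists were chosen after seeing the data. No paired analysis was possible because the labels give no number that links mice across groups. Standard errors were widest for Tfr2, Bmp6 and Hamp2, and the part of depth in them was not tested. Leaving out male 0.5 mg/kg mouse 2 and male 5 mg/kg mouse 3, the least deep libraries, gave Fth1 at 0.29 (adjusted p = 0.279) in males at 5 mg/kg.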
